A study of Paralichthys olivaceus with 22 samples.

Results

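Kidney RNA of Japanese flounder, Paralichthys olivaceus, was compared between fish treated with an Edwardsiella tarda FKC preparation and fish treated with a Streptococcus iniae FKC preparation, both taken at 6 h. The arrays were chosen by their titles, and they are 3 arrays for each preparation, or 6 of the 22 arrays of the series. The other arrays hold PBS controls at 6 h, with 4 arrays, and kidneys of all 3 treatments at 12 h, with 4 arrays each. FKC is not spelled out in the labels; in fish vaccine work it commonly stands for formalin-killed cells. Neither the strain and age of the fish nor the dose and route of treatment is given in the sources used here. Samples of a group are numbered in the labels, which do not state that these are separate fish, and p-values below therefore measure only a spread between samples that may in part be technical.

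E. tarda is a Gram-negative bacterium, whose outer membrane carries lipopolysaccharide, and S. iniae is a Gram-positive bacterium, whose wall is a thick layer of peptidoglycan with teichoic acids. Both cause disease in farmed flounder. In teleost fish the kidney, above all its head part, is a blood-forming and lymphoid organ, rich in macrophages, granulocytes and lymphocytes. The comparison asks which transcripts differ in that organ a few hours after one kind of bacterial preparation and not the other.

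Each array held 14481 probes for flounder transcripts. Of these, 412 probes carry the name of one of 409 GenBank entries, and 14069 carry the name of a sequence contig. Neither kind of name is paired with a gene symbol in the files, and 0 of the names matched the RefSeq gene table of the species. No pathway, cell type or kidney marker could therefore be checked, and transcripts are given below by probe and by GenBank entry. Levels are log2 signal minus the 75th percentile of the array, so that a level of 0 is a transcript at the 75th percentile. The faintest probes that the scanner software called well above background lay between -4.72 and -4.31 on this scale on the 6 arrays. Between 9583 and 10666 probes were well above background on the E. tarda arrays, and between 10047 and 10393 on the S. iniae arrays, so the groups overlapped. No spot was saturated, and precision is limited by the number of arrays.

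The arrays of the 2 preparations separated on the leading principal component (45.5% of the variance, 11026 probes). The E. tarda arrays lay at 28.8, 54.8 and 40.7 on it, and the S. iniae arrays at -35.2, -40.2 and -48.8. Pairs of E. tarda arrays correlated at 0.952 to 0.968 across probes and pairs of S. iniae arrays at 0.952 to 0.971, while pairs with 1 array of each preparation correlated at 0.908 to 0.945. The E. tarda arrays were the more variable, with a median probe SD of 0.37, against 0.27 on the S. iniae arrays. Among the other 4 groups this SD lay between 0.28 and 0.35. All 6 arrays were on 1 slide. The E. tarda arrays occupied its first row and the S. iniae arrays its second, so row and preparation cannot be told apart. Arrays of equal replicate number lay in the same column of the slide. The 7 spike-in probes well above background on the 6 arrays, which measure added control RNA, averaged 2.28 on E. tarda and 2.57 on S. iniae arrays. That difference of -0.29 did not pass a two-sided exact permutation test (p = 0.3, where 3 arrays against 3 cannot go below 0.1), and all 7 probes were lower on the E. tarda arrays. The slope of the scanner software's spike-in fit was 0.948 to 0.969 on the E. tarda arrays. On the S. iniae arrays it was 0.971 to 0.989, so the groups did not overlap. A part of this slope in the differences below was not tested.

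Early after treatment kidney transcripts differed between the 2 preparations. Of 11066 probes tested, 857 had higher and 696 had lower levels in fish given E. tarda FKC than in fish given S. iniae FKC, which is 14.03% of the probes (7.74% higher and 6.29% lower, limma adjusted p under 0.05). Without an adjustment, the levels of the 3 E. tarda arrays and the 3 S. iniae arrays did not overlap in 30.6% of the probes, 1736 of them higher and 1654 lower. In whole kidney RNA, a change in the share of a cell type and a change of RNA within the cells cannot be told apart. With each array scaled to its median in place of its 75th percentile, 709 probes were higher and 763 lower, so the balance of the directions depends on the scaling. The count depends on how the spread is estimated. The spread of a probe was taken from all 22 arrays, and from the 6 arrays alone 461 probes were higher and 228 lower. Leaving out 1 array gave 881 calls without E. tarda replicate 2, and 957 and 932 calls without S. iniae replicates 2 and 3. Of the 1553 calls, 602 were also called from the 6 arrays alone. That fit gives each probe the same difference and changes only its error, so no call could turn to the opposite direction. With the replicate number, and so the slide column, as a block in the fit of the 6 arrays, 327 probes were higher and 127 lower. That fit has fewer residual degrees of freedom, and it kept 400 (25.8%) of the 1553 calls.

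**Figure D1:**
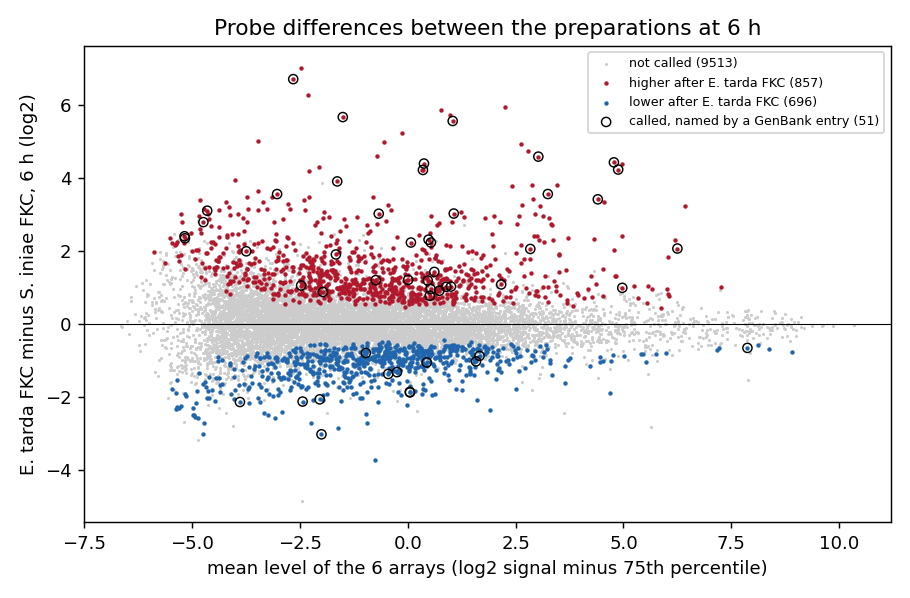
Each point is 1 of the 11066 probes tested, with its mean level over the 6 arrays on the horizontal axis and the log2 difference of E. tarda FKC minus S. iniae FKC at 6 h on the vertical axis. The largest fitted differences lie on the upper side, up to 7.02, while the called probes on the lower side end at -3.73.

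The large differences lay almost wholly on the side of higher levels after E. tarda FKC. Since the fold of a transcript too faint to measure in 1 group is not a measured size, sizes were counted for the called probes well above background on all 6 arrays, which were 693 higher and 588 lower. Of these, 435 were higher and 263 lower by at least 2-fold, 103 and 12 by at least 4-fold, and 34 and 1 by at least 8-fold. By at least 16-fold, 15 were higher and 0 lower. Probes were also ordered by mean level and split into 4 classes of equal size. From the faintest class to the brightest, 175, 228, 248 and 206 probes were higher and 63, 171, 263 and 199 lower. Higher calls outnumbered lower ones mainly in the fainter classes. Over all probes of a class, called or not, the median difference ran the same way, at 0.18, 0.04, -0.06 and -0.09. The part of this offset in the calls was not tested. In all, 8.6% of the probes of the faintest class were called and 14.6% of the brightest.

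Some transcripts were detected at 6 h after only 1 of the preparations. Of all probes tested, 87 were well above background on all 3 E. tarda arrays and on none of the S. iniae arrays, and 89 showed the opposite, so these totals were nearly equal. Among them, 63 of the 87 and 25 of the 89 passed the test, where 14.03% of all probes tested did. Both sets were picked by detection on the same 6 arrays, which favours calls. The 63 probes were higher after E. tarda FKC by at least 1.22-fold to at least 50.7-fold, with a median bound of 2.65-fold. Each bound sets the mean level of the brighter group against the faintest signal called well above background on the arrays of the other. Where the probe's own level there was higher, that level was used. The bounds are between means and take no account of the spread between arrays. The 25 probes were lower by at least 1.06-fold to at least 3.74-fold, with a median bound of 1.92-fold. PBS arrays of 6 h, on another slide, add another group: 46 of the 63 probes were not detected on any of the 4 PBS arrays, and 0 of them on all 4. Of the 25 probes detected after S. iniae FKC, 7 were well above background on no PBS array and 7 on all 4. The faintest probes called well above background lay between -4.13 and -3.73 on the PBS arrays. On the 6 arrays they lay lower, between -4.72 and -4.31, so a faint probe could be missed on the PBS arrays for that reason.

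The contig probe with the largest fitted difference was CUST_13650_PI426483990, of contig JFC14197_1_code. Its level was 0.95, 2.34 and -0.17 on the E. tarda arrays, against -5.61, -6.38 and -5.94 on the S. iniae arrays. All 3 E. tarda arrays were well above background, and no S. iniae array was. The means were 1.04 ± 1.26 after E. tarda FKC, against -5.97 ± 0.39 after S. iniae FKC (SD, n = 3 each), a fitted difference of 7.02 (SE 0.45, limma adjusted p = 3.17e-08), and the transcript was at least 50.7-fold higher after E. tarda FKC. The 4 PBS arrays of 6 h averaged -5.93 and were not well above background either. Normexp background correction with quantile normalization, which adds a constant of 50 and so shrinks faint values, gave a difference of 3.31. CUST_13892_PI426483990, of contig JFC07797_1_code, stood at 0.92, 1.77 and -0.26 on the E. tarda arrays and at -5.06, -5.09 and -6.21 on the S. iniae arrays. It was at least 43.1-fold higher after E. tarda FKC (fitted difference 6.26, SE 0.47, limma adjusted p = 8.66e-08), or 3.13 after normexp and quantile normalization, and no S. iniae or PBS array of 6 h was well above background. The 2 probes had the same order across the E. tarda arrays, with replicate 2 highest and replicate 3 lowest. Their levels on the FKC arrays of 12 h, given below, also lay close together, so they may not be separate results. Whether they report 1 transcript was not tested.

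Among contig probes called as lower after E. tarda FKC, CUST_12227_PI426483990, of contig JFC16209_1_code, had the largest difference. Its level was -3.28, -2.78 and -1.79 on the E. tarda arrays, against 1.74, -0.48 and 2.08 on the S. iniae arrays, and every array was well above background. The groups did not overlap, though the S. iniae arrays spanned a wide range. The means, -2.62 ± 0.76 after E. tarda FKC against 1.11 ± 1.39 after S. iniae FKC (SD, n = 3 each), differed by -3.73 (SE 0.92, limma adjusted p = 0.0111), and PBS at 6 h averaged 1.04. That call was lost without S. iniae replicate 3, with a limma adjusted p of 0.0589 and a range of 0.00651 to 0.0589 over all settings. CUST_4187_PI426483990, of contig JFC28735_1_code, was tight within each preparation. It lay at -6.17, -6.35 and -6.26 on the E. tarda arrays, none of them well above background, and at -3.35, -3.09 and -3.31 on the S. iniae arrays, all 3 well above it. The transcript was at least 2.4-fold lower after E. tarda FKC (fitted difference -3.01, SE 0.45, limma adjusted p = 0.000193), while normexp with quantile normalization gave -0.73. PBS at 6 h averaged -3.40.

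Probes named by a GenBank entry stand for sequences with an entry of their own in that database. Of the 412 such probes, 320 passed the filter on faint probes. Of these 320, 38 had higher and 13 had lower levels after E. tarda FKC, each probe from a different entry. That is 15.9% of the GenBank probes, against 14.03% of all probes tested. The share of higher calls was 11.9%, against 7.74% of all probes tested, and the share of lower calls was 4.06%, against 6.29%. These probes were also brighter, with a median level of 0.52, against -1.34 over all probes tested, and the part of this in the shares was not tested. Their median difference was 0.07, and that of all probes tested -0.002. Normexp with quantile normalization called 42 as higher and 27 as lower, so that 60.9% of their calls were higher in place of 74.5%. From the 6 arrays alone 24 were higher and 8 lower, and with the replicate block 22 and 3.

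The 38 higher GenBank probes spanned differences of 0.77 to 6.70, with a median of 2.27. In 23 of them the difference was at least 4-fold and in 15 at least 8-fold on the fitted scale. The S. iniae arrays were all well above background in 29 of the 38, in part in 3, and in none of the arrays in 6. In 1 of those 6 the E. tarda arrays were well above background only once, CUST_387_PI426483993 of entry EU586111. The levels of the 2 preparations did not overlap in 37 of the 38. The 13 lower GenBank probes were a smaller and flatter set, with differences of -3.02 to -0.65 and a median of -1.37, of which 4 reached 4-fold and 1 reached 8-fold. In all 13 the arrays of the 2 preparations did not overlap. Calls and overlap were read on the same 6 arrays, so little overlap is built into these counts. With every array of the higher group also well above background, 36 of the 38 and 13 of the 13 had no overlap. Of the contig calls, 746 of 819 higher and 627 of 683 lower ones met the same rule, so this is no trait of the GenBank probes.

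**Figure D2:**
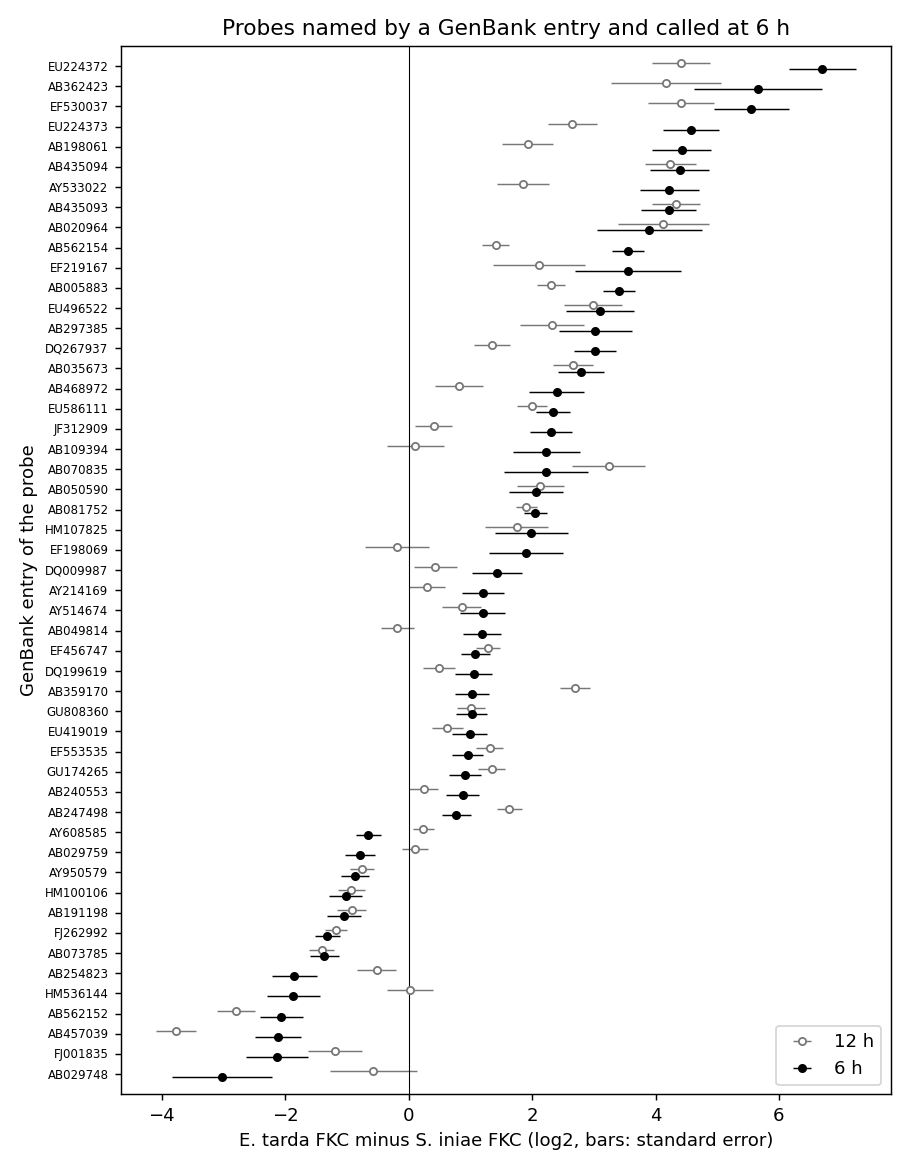
Each row is 1 of the 51 probes named by a GenBank entry and called at 6 h, with its log2 difference of E. tarda FKC minus S. iniae FKC at 12 h (open points) and 6 h (filled points) and the standard error of the fit as bars. The 38 higher probes reach 6.70 and the 13 lower ones -3.02 at 6 h, and 36 and 10 of them keep their direction at 12 h. Of all probes tested, 45.7% were on the higher side at 12 h.

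The GenBank probe with the largest fitted difference was CUST_377_PI426483993, of entry EU224372, whose size was not measured because it was too faint after S. iniae FKC. It lay at 0.39, 2.41 and -0.71 on the E. tarda arrays, all well above background, against -5.35, -6.42 and -6.24 on the S. iniae arrays, none of which was. The transcript was at least 39.8-fold higher after E. tarda FKC (fitted difference 6.70, SE 0.54, limma adjusted p = 2.06e-07). It was also not detected on any PBS array of 6 h, where the mean was -5.94, and normexp with quantile normalization gave a difference of 2.93. On the E. tarda arrays CUST_377_PI426483993 had the order of the 2 higher contig probes above, with replicate 2 highest and replicate 3 lowest. Its levels on the FKC arrays of 12 h, given below, also lay close to those of both. Whether it reports the same transcript as either was not tested. CUST_267_PI426483993, of entry AB362423, lay at 1.01, 2.33 and 0.63 on the E. tarda arrays and at -3.71, -5.53 and -3.77 on the S. iniae arrays, of which 2 were well above background. Its means, 1.32 ± 0.89 after E. tarda FKC against -4.34 ± 1.03 after S. iniae FKC (SD, n = 3 each), differed by 5.66 (SE 1.03, limma adjusted p = 0.00121), or by 3.01 after normexp and quantile normalization. PBS at 6 h averaged -5.73, with no array well above background.

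Other GenBank probes had differences measured on every array. The 2 largest on either side among called probes well above background on all 6 arrays were picked after their values had been seen. CUST_156_PI426483993, of entry EF530037, lay at 4.04, 4.36 and 3.06 on the E. tarda arrays and at -1.69, -1.90 and -1.62 on the S. iniae arrays, a difference of 5.55 (SE 0.61, limma adjusted p = 7.31e-06) or 47-fold. Its PBS mean at 6 h was -1.91, so the S. iniae arrays lay beside the PBS arrays. CUST_391_PI426483993, of entry EU224373, was tight within each preparation. Its levels were 5.22, 5.47 and 5.26 after E. tarda FKC, against 0.54, 0.63 and 1.03 after S. iniae FKC, a difference of 4.58 (SE 0.46, limma adjusted p = 2.79e-06) or 23.9-fold. PBS at 6 h averaged -0.55 ± 0.71 (SD, n = 4).

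On the lower side the 2 called GenBank probes with the largest fitted differences were too faint on some E. tarda arrays to be measured there. CUST_162_PI426483993, of entry AB029748, lay at -2.36, -4.83 and -3.34 on the E. tarda arrays, of which 2 were well above background, and at 0.14, -0.45 and -1.17 on the S. iniae arrays. The difference of -3.02 (SE 0.81, limma adjusted p = 0.0179) was -1.53 after normexp and quantile normalization, and PBS at 6 h averaged 0.56. Its call was lost without E. tarda replicate 2 (limma adjusted p = 0.109), without S. iniae replicates 1 and 2 (0.066 and 0.0529) and in the fit of the 14 FKC arrays (0.0593), within a range of 0.00641 to 0.109 over all settings. CUST_206_PI426483993, of entry FJ001835, lay at -6.36, -5.02 and -3.50 on the E. tarda arrays, with 1 of 3 well above background, and at -3.15, -2.54 and -2.78 on the S. iniae arrays. The difference was -2.13 (SE 0.51, limma adjusted p = 0.00878), and -0.55 after normexp and quantile normalization, and PBS at 6 h averaged -1.83. From the 6 arrays alone it was not called, with a limma adjusted p of 0.1 in a range of 0.000469 to 0.1.

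Of the GenBank probes called as lower and measured on all 6 arrays, CUST_85_PI426483993, of entry AB562152, had the largest difference. Its levels were -2.52, -3.07 and -3.62 after E. tarda FKC, against -0.92, -0.96 and -1.16 after S. iniae FKC, a difference of -2.06 (SE 0.35, limma adjusted p = 0.000666), which was -1.27 after normexp and quantile normalization. PBS at 6 h averaged -0.24, above both preparations. CUST_209_PI426483993, of entry HM536144, lay at -0.56, -1.89 and -0.20 on the E. tarda arrays and at 0.84, 1.15 and 0.97 on the S. iniae arrays, a difference of -1.87 (SE 0.43, limma adjusted p = 0.00694). The PBS arrays of 6 h, at -0.45, 0.70, -0.06 and -0.78, lay below all S. iniae arrays and overlapped the E. tarda arrays. Without E. tarda replicate 2 its limma adjusted p was 0.0505, the range over all settings being 0.00191 to 0.0744.

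**Figure D3:**
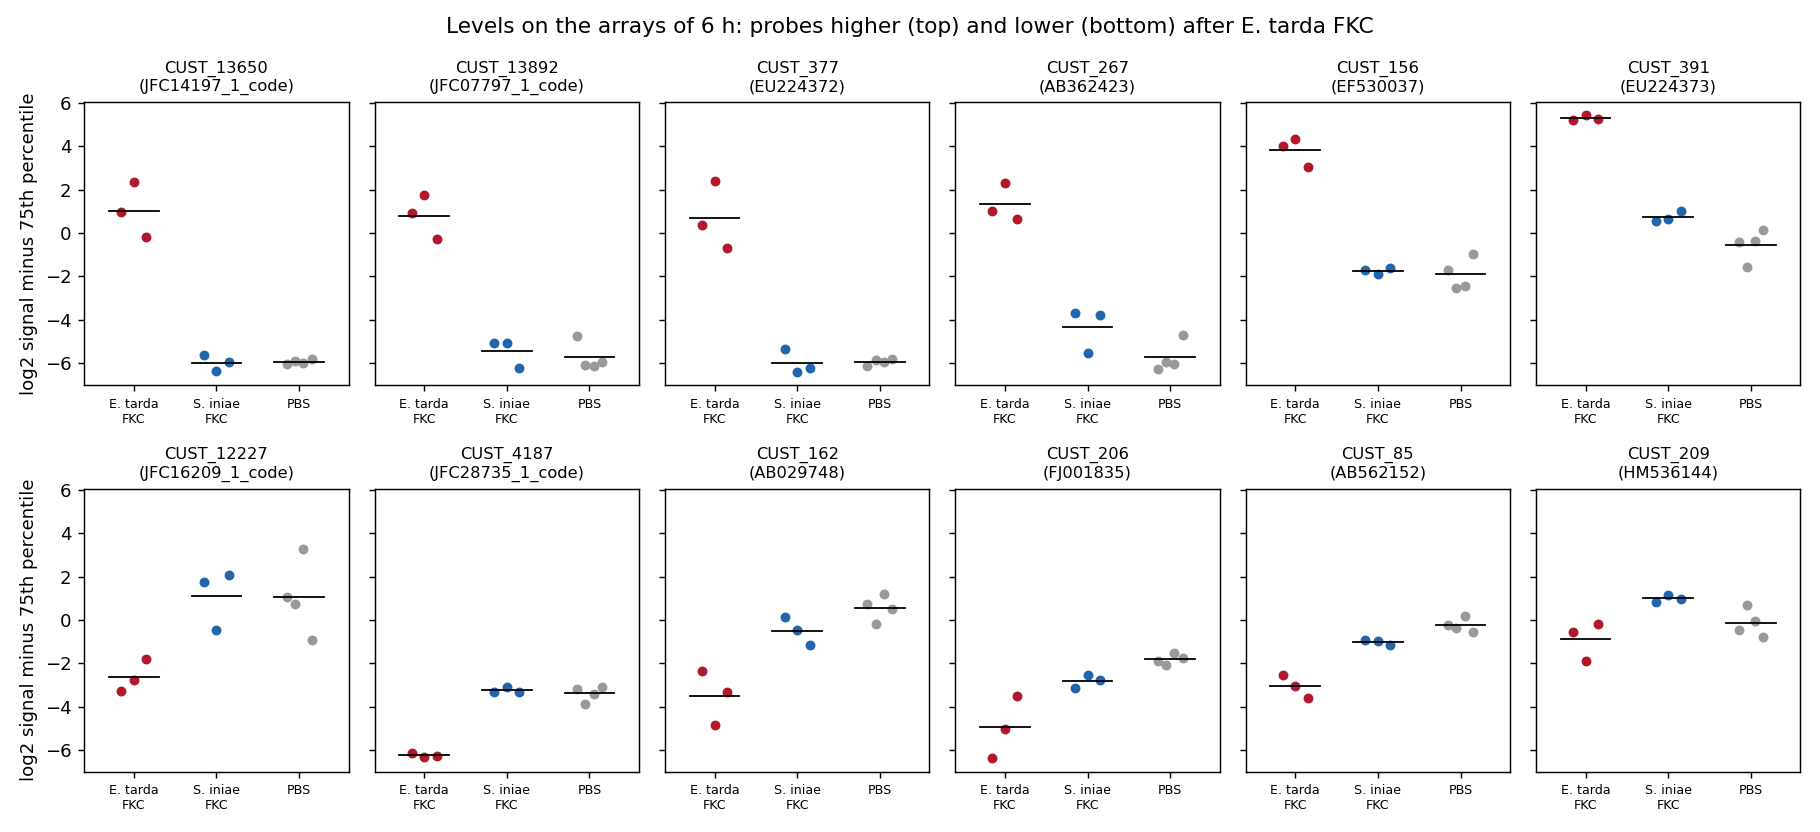
The 12 panels give the level of 1 probe each on every array of 6 h as points and the group mean as a line, in log2 signal minus the array's 75th percentile, with E. tarda FKC on the left, then S. iniae FKC, then PBS. In the top row the E. tarda arrays lie above all S. iniae arrays and in the bottom row below them, and values near -6 lie below the scanner's limit for well above background.

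Set against PBS of 6 h, the probes that differed between the preparations mostly lay apart from PBS after E. tarda FKC, and close to PBS after S. iniae FKC. These 2 comparisons share the PBS arrays with each other and the FKC arrays with the comparison above, and PBS was on another slide, so their values are given side by side as a description. Over the 857 higher probes, the median difference from PBS was 1.36 for E. tarda FKC (interquartile range 0.87 to 2.12) and 0.11 for S. iniae FKC (interquartile range -0.20 to 0.45). Over the 696 lower probes the medians were -1.03 for E. tarda FKC (interquartile range -1.38 to -0.77) and -0.01 for S. iniae FKC (interquartile range -0.21 to 0.19). Over all probes tested both medians lay within 0.013 of 0. The spread around them was wider after E. tarda FKC, with quartiles at -0.49 and 0.52. After S. iniae FKC the quartiles were -0.26 and 0.27. A larger distance from PBS after E. tarda FKC was therefore also seen over all probes tested. The called probes had moreover been chosen by their difference on the same FKC arrays. The 38 higher GenBank probes had medians of 2.54 for E. tarda FKC and 0.35 for S. iniae FKC, and the 13 lower ones medians of -1.58 and -0.22. Grouped by fitted size, 65 probes were at least 8-fold higher. Of these, 34 were well above background on all 6 arrays, and in 21 no S. iniae array was. Among the 65 the medians were 4.46 for E. tarda FKC and 0.47 for S. iniae FKC, and among the 262 higher by under 2-fold they were 0.82 and 0.01. The lower probes showed no steady order of the S. iniae medians, which were -0.01 under 2-fold, -0.02 from 2-fold to 4-fold, 0.13 from 4-fold to 8-fold and 0.08 in the 3 probes of at least 8-fold. One of the 65 is CUST_6587_PI426483990, of contig JFC00244_1_code, with levels of 5.05, 4.84 and 5.38 after E. tarda FKC, against 0.30, -0.74 and 0.92 after S. iniae FKC. It is an example from outside the rule for named probes, and its PBS level is not given here.

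The kidneys of 12 h test the same difference on arrays that were not used at 6 h, apart from the spread, which was estimated over all arrays. They lie on a second slide, again with E. tarda FKC in the first row and S. iniae FKC in the second. Of the 857 probes higher at 6 h, 695 (81.1%) were on the same side at 12 h and 364 (42.5%) were called there as higher, where 9.45% of all probes tested were. Of the 696 lower probes, 576 (82.8%) were on the same side and 229 (32.9%) were called as lower, where 9.33% of all probes were. Of all 11066 probes tested, called or not, 5060 (45.7%) were on the higher side at 12 h. The median difference over the higher probes was 0.60 at 12 h, against 1.27 at 6 h, where the probes had been chosen. Over the lower probes it was -0.40 at 12 h, against -1.01 at 6 h. Large differences were the most often called again. Of the 65 probes at least 8-fold higher at 6 h on the fitted scale, 49 (75.4%) were called as higher at 12 h. Of the 262 probes under 2-fold, 82 (31.3%) were. Only 34 of the 65 were well above background on all 6 arrays of 6 h. Among the GenBank probes, 26 of the 38 higher and 7 of the 13 lower ones were called in the same direction at 12 h, and 0 in the opposite direction. Of all 320 GenBank probes tested, 86 (26.9%) were called at 12 h, where 18.8% of all probes were.

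**Figure D4:**
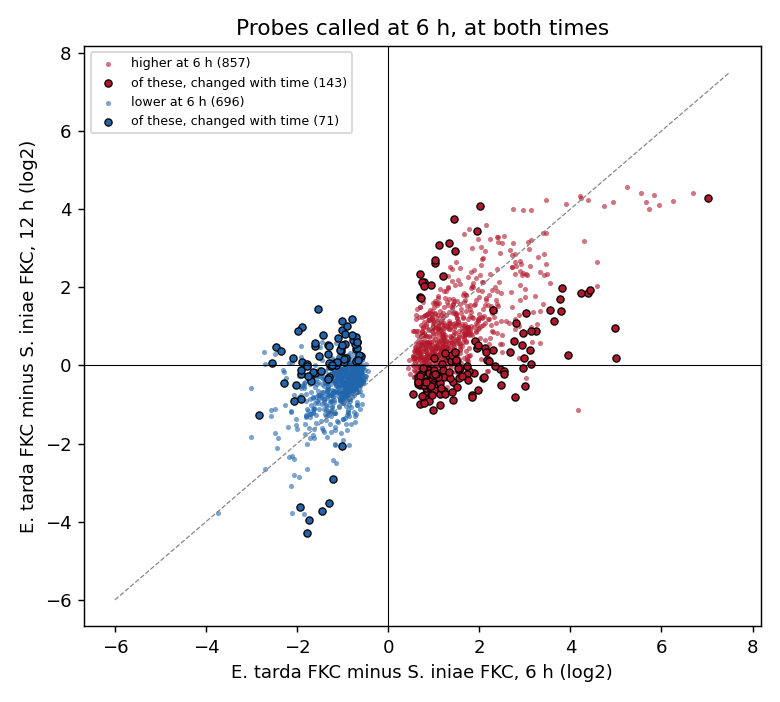
Each point is 1 of the 1553 probes called at 6 h, with the log2 difference of E. tarda FKC minus S. iniae FKC at 12 h on the vertical axis and at 6 h on the horizontal axis. The dashed line marks equal differences, and outlined points are the 127 and 16 higher and the 64 and 7 lower probes whose difference changed between the times by limma (adjusted p under 0.05).

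Part of the early difference was not seen at 12 h. The change of the difference between the times was called in 3.79% of all probes tested, 1.91% upward and 1.88% downward. This count of 419 was 36 with the replicate block within each time and 199 in the fit of the 14 FKC arrays without it. It was 224, 148 and 197 without E. tarda replicate 2, S. iniae replicate 2 and S. iniae replicate 3 of 6 h, and 279 without S. iniae replicate 4 of 12 h. Among the 857 probes higher at 6 h it was called downward in 127 and upward in 16, and among the 696 lower probes upward in 64 and downward in 7. Choosing probes by their difference at 6 h favours moves toward 0. The 127 and the 64 were also chosen by a called change in that direction. Their median differences at 12 h therefore follow largely from the choice. In the 127 probes the median difference was -0.23 at 12 h, against 1.41 at 6 h. Their median level after E. tarda FKC was -0.92 at 12 h, against 0.10 at 6 h, and with S. iniae FKC it was -0.72 at 12 h, against -1.31 at 6 h. The PBS medians of these probes were -1.29 at 12 h and -1.38 at 6 h, so at 12 h the medians of both preparations lay above that of PBS. In the 64 probes the median difference was 0.25 at 12 h, against -1.30 at 6 h. Of these 64, 14 were called as higher after E. tarda FKC at 12 h, where 9.45% of all probes tested were. Of the 127, 14 were called as lower at 12 h, where 9.33% of all probes tested were. The FKC arrays of the 2 times lay on different slides, so in the levels slide and time cannot be told apart, but each difference between preparations comes from arrays of 1 slide. The 16 probes that moved upward had a median difference of 2.48 at 12 h, against 1.02 at 6 h. All 16 were called as higher at 12 h. That follows largely from their choice, since the difference at 12 h is the difference at 6 h plus the change.

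The 2 probes higher at 6 h with the largest fitted change of this kind were chosen after their values had been seen. CUST_4972_PI426483990, of contig JFC22230_1_code, lay at -1.08, -0.72 and -1.09 on the E. tarda arrays of 6 h, against -5.54, -6.22 and -6.12 on the S. iniae arrays, where none was well above background. It was at least 12.6-fold higher after E. tarda FKC at 6 h (fitted difference 4.999, SE 0.60, limma adjusted p = 1.96e-05), and normexp with quantile normalization gave 1.48. PBS at 6 h averaged -5.20, with 1 of 4 arrays well above background. At 12 h it averaged -3.62 ± 0.40 after E. tarda FKC, against -3.81 ± 0.67 after S. iniae FKC (SD, n = 4 each), a difference of 0.19, and the difference changed by -4.81 (SE 0.79, limma adjusted p = 0.00399). Only 2 of the E. tarda and 1 of the S. iniae arrays of 12 h were well above background. CUST_13955_PI426483990, of contig JFC27041_1_code, was measured on all 6 arrays of 6 h, at 1.90, 2.32 and 1.57 after E. tarda FKC, against -3.60, -3.17 and -2.35 after S. iniae FKC, where PBS averaged -5.43, a 31.4-fold difference between the preparations (4.97, SE 0.52, limma adjusted p = 4.23e-06). At 12 h it averaged -1.89 ± 0.42 after E. tarda FKC, against -2.84 ± 1.102 after S. iniae FKC (SD, n = 4 each). The difference of 0.94 did not pass the test at that time, and the change of -4.03 (SE 0.68, limma adjusted p = 0.00517) did.

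Of the 12 probes shown by array, 9 were called in the same direction at 12 h. CUST_13650_PI426483990 differed by 4.29 (SE 0.39, limma adjusted p = 4.56e-07) at 12 h, when its level stood at 1.99 ± 0.57 after E. tarda FKC, against -2.31 ± 0.50 after S. iniae FKC (SD, n = 4 each) and all 8 of these arrays were well above background. Its difference changed by -2.72 (SE 0.59, limma adjusted p = 0.0183), from a value at 6 h that had S. iniae arrays below measurement. The GenBank probe CUST_377_PI426483993, of entry EU224372, differed by 4.42 (SE 0.47, limma adjusted p = 2.37e-06) at 12 h, with 1.95 ± 0.62 after E. tarda FKC, against -2.46 ± 0.57 after S. iniae FKC (SD, n = 4 each). On the E. tarda arrays of 12 h CUST_13650_PI426483990 lay at 2.72, 1.66, 1.43 and 2.14. There CUST_377_PI426483993 lay at 2.83, 1.61, 1.45 and 1.92, and CUST_13892_PI426483990 at 2.803, 1.62, 1.48 and 2.09. On the S. iniae arrays of 12 h CUST_13650_PI426483990 lay at -2.62, -1.93, -1.84 and -2.84. There CUST_377_PI426483993 lay at -2.704, -2.15, -1.85 and -3.14, and CUST_13892_PI426483990 at -2.69, -1.91, -1.77 and -2.51. These probes may therefore not be separate results, though the 9 count each of them. CUST_12227_PI426483990 differed by -3.79 at 12 h and -3.73 at 6 h. CUST_209_PI426483993 was at -0.67 ± 0.56 after E. tarda FKC, against -0.69 ± 0.54 after S. iniae FKC at 12 h (SD, n = 4 each), and the change of its difference by 1.89 did not pass the test (SE 0.57, limma adjusted p = 0.0681).

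No value here measures the rows of the slide alone. On another slide, that of the PBS arrays, those of 6 h lay in the first row and those of 12 h in the second. PBS of 6 h minus PBS of 12 h sets the same rows against each other together with time, and cannot separate row from time. Over the 857 higher probes the median of that difference was 0.07 (interquartile range -0.14 to 0.33), over the 696 lower probes -0.04 (interquartile range -0.18 to 0.15), and over all probes tested 0.02. It was called as higher in 9 and as lower in 4 of the 857 probes. Of the 696 probes it was called as higher in 11 and as lower in 0. Of all probes tested, 0.813% were called as higher and 0.181% as lower. The detrending fit of the scanner software had an RMS of 0.146 to 0.243 on the slide of the 6 arrays. On the PBS slide that RMS was 0.063 to 0.089, and on the slide of the FKC arrays of 12 h it was 0.068 to 0.087. The slide of the 6 arrays thus differed from both others in this respect. A part of the row in the comparison of the preparations was not tested.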

How the data were processed

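Cy3-labelled kidney RNA was hybridised to 1-colour custom Agilent arrays. Scanner files as deposited hold intensity values, background-subtracted and detrended by Feature Extraction 10.7.3.1, per the file headers; the submitters' processing notes name 9.5.3.1. The authors' deposited table of log2 values served as an alternative. Of its values for the 6 arrays, 99.99% lay within 0.1 of the scale used here minus the probe's PBS median of that time, and its column medians were -0.0871 to -0.0161.

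Control spots and spots marked as outliers were removed (44 missing values on the 6 arrays). From log2 of the processed signal, each array's 75th percentile was subtracted, and spots of 1 probe were averaged. The test took the 11066 of 14481 probes with a signal well above background on 3 or more of 22 arrays. Using limma 3.58.1 (R 4.3.3; lmFit, eBayes, 16 residual degrees of freedom), 6 group means were fitted over all arrays, with Benjamini-Hochberg adjusted p under 0.05 over all probes. Data were simulated for this comparison with 200 changed probes among 11066. The fit recovered 28% of the 2-fold and 76% of the 4-fold changes, with 5 false among 109 calls. Recovery depends on the share of changed probes, and 1553 probes were called in the data, so these rates hold for the simulated setting only. Named probes are the 2 highest and 2 lowest of each kind among calls without overlap with every array of the higher group well above background. Alternatives changed the normalization, the filter, the arrays in the fit, the spread estimate, a replicate block and a fold minimum, and left out each array in turn. None of the 349 symbols in 23 gene lists could be matched, so no list was tested. Members and lists were chosen with earlier results of these data known.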

Additional observations from a re-analysis of the deposited data

Results flagged for a closer look

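A change with time of the difference between the 2 preparations was called in 419 probes. Among the probes named above it was called for CUST_13650_PI426483990, which changed by -2.72 (4.29 at 12 h, 7.02 at 6 h), for CUST_4972_PI426483990, which changed by -4.81 (0.19 at 12 h, 4.999 at 6 h), and for CUST_13955_PI426483990, which changed by -4.03 (0.94 at 12 h, 4.97 at 6 h). These last 2 were chosen for this change.

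In groups of 4 arrays, 8 of 56 sets of values of the named probes held an array far from the other 3, where chance gives about 1 in 20 for independent sets. These sets share arrays and are not independent, so no excess can be read from the count. PBS of 12 h replicate 2 was low for CUST_13650_PI426483990 at -5.92 (others -5.44 to -5.38), for CUST_13892_PI426483990 at -5.99 (others -5.57 to -5.50) and for CUST_13955_PI426483990 at -6.13 (others -5.67 to -5.60), all below measurement. PBS of 6 h replicate 1 was high for CUST_13892_PI426483990 at -4.77 (others -6.13 to -5.94), and PBS of 6 h replicate 2 for CUST_4972_PI426483990 at -2.84 (others -6.22 to -5.78), where it was the 1 PBS array well above background. PBS of 12 h replicate 1 was low for CUST_4187_PI426483990 at -4.15 (others -2.97 to -2.75). E. tarda FKC of 12 h replicate 2 was low for CUST_156_PI426483993 at 3.98 (others 4.93 to 5.003). S. iniae FKC of 12 h replicate 3 was high for CUST_209_PI426483993 at 0.11 (others -1.05 to -0.91).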

How the results depend on the processing

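The count of 1553 calls at 6 h was 689 from the 6 arrays alone (461 higher, 228 lower), 1021 in the fit of the 14 FKC arrays and 955 with calls of at least 2-fold only. Leaving out 1 array gave 881 to 2015. With the replicate block, described below, the count was 454. It stayed within 1.5 times of 1553 under the other 9 settings, up to 2267 after normexp and quantile normalization. The count of higher calls did not exceed that of lower calls under 3 of these, with 709 and 763 after scaling to the median, 877 and 945 after quantile normalization, and 1130 and 1137 after normexp and quantile normalization. The 51 GenBank calls were 32 from the 6 arrays alone and 35 to 56 without 1 array. The 419 calls of a change with time were 199 both in the fit of the 4 groups and in that of the 14 FKC arrays, which are 1 fit, and 148 to 597 without 1 array.

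The labels do not say that samples of equal number belong together, but per the file headers their arrays lay in the same slide column. Their deviations from the group means correlated at 0.141, 0.0641 and 0.215 across probes. With the replicate block the counts were 454 at 6 h (327 higher, 127 lower), 25 among GenBank probes and 36 for the change with time, and CUST_206_PI426483993 and CUST_209_PI426483993 lost their calls (limma adjusted p = 0.0789 and 0.0744). Each 6 h array correlated best with the array of its own number and column. The 14 named probes kept their direction under every setting run. Their groups did not overlap at 6 h, so leaving out an array or changing the spread estimate could not reverse it.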

Other observations

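Among the GenBank entries, AF220549, AF220552 and AF220554 each carry 2 probes, and 0 of the 6 probes was called at 6 h. The differences of E. tarda FKC minus S. iniae FKC were -0.13 and -0.31 for AF220549, -0.17 and -0.25 for AF220552, and -0.56 and -0.20 for AF220554.

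Single arrays differed widely in some probes. Levels spanned at least 3 log2 units within the preparation in 114 probes on the E. tarda arrays and in 151 on the S. iniae arrays. Only 20 of the 114 and 38 of the 151 were measured on all arrays, so many of these spans may hold a value too faint to measure. The array farthest from the median of its group was S. iniae replicate 3 in 96 of the 151, and E. tarda replicate 1 in 54 of the 114. Among probes that 5 or 6 of the arrays measured above background, the widest was CUST_271_PI426483993, of GenBank entry DQ860840, at 7.76, 6.35 and -1.40 on the E. tarda arrays and 6.80, 6.94 and 7.41 on the S. iniae arrays, and it was not called. CUST_10858_PI426483990, of contig JFC12544_1_code, lay at -2.96, -2.72 and -1.44 after E. tarda FKC and at -4.18, -6.27 and 1.88 after S. iniae FKC.

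In 4 of the GenBank probes higher after E. tarda FKC, levels ran in pairs, picked after the values had been seen. CUST_62_PI426483993 (AB198061) lay at 6.73, 7.501 and 6.74 after E. tarda FKC and 2.38, 2.65 and 2.67 after S. iniae FKC, and CUST_63_PI426483993 (AY533022) at 6.74, 7.56 and 6.67 and at 2.36, 2.83 and 3.104. CUST_48_PI426483993 (AB435093) lay at 3.22, 2.06 and 2.09 after E. tarda FKC and -2.06, -1.66 and -1.55 after S. iniae FKC, and CUST_49_PI426483993 (AB435094) at 3.22, 2.38 and 2.11 and at -2.25, -1.33 and -1.88. Whether the probes of a pair report 1 transcript was not tested.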
